A study of Mus musculus with 39 samples.

Results

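The 9 libraries from the basolateral amygdala (BLA) of APP/Tau mice, among 39 libraries of BLA and hippocampus in the series, were ranked by the share of their counts that fell on Gfap. Gfap encodes the glial fibrillary acidic protein, an intermediate filament of astrocytes. The 4 libraries with the highest Gfap level were set against the 4 with the lowest, and the middle library was left out, so that 8 of 9 libraries enter the comparison. The 8 libraries were thus chosen by their Gfap level, which is given only as a description, and every other BLA value below comes from the same libraries, so no test is attached to a BLA difference between the high and low groups. Tests were made only in data that the ranking did not use, which are the hippocampal libraries of the same-numbered mice and the BLA libraries of the control mice.

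All mice were females aged 9 months on a C57BL/6 background. APP/Tau mice carry the human amyloid precursor protein with the Swedish and Indiana mutations (APPSw,Ind, the J9 line) and human tau with the P301S mutation (the PS19 line), and controls carry neither. Every mouse of either genotype also carries CaMKIIα-Cre, which acts in glutamatergic forebrain neurons, and 1 copy of RiboTag, a tagged ribosomal protein that Cre switches on. Only the input fraction was sequenced, which is RNA of all cells of the tissue before ribosomes are pulled down. Trained mice heard a tone paired with a shock to the feet, 1 h before they were killed, and naive mice were not trained. BLA tissue came from 4 punches of 1 mm diameter per mouse, in sections of 300 µm, so neighbouring tissue can be included. The high group holds 2 naive and 2 trained mice and the low group 3 naive and 1 trained. The BLA reference is 5 naive and 5 trained controls.

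Gliosis is the reaction of glial cells to injury or protein deposits. Astrocytes that react make more Gfap, vimentin and a set of secreted proteins, among them the protease inhibitor encoded by Serpina3n and the complement component encoded by C4b. Microglia that gather at amyloid plaques pass through a programme that depends on the lipid receptor TREM2 and its adaptor TYROBP, in which genes for phagocytosis, lipid handling and lysosomes come up while genes of resting microglia such as P2ry12 go down. Astrocytes also supply neurons with cholesterol. The BLA is built mainly of glutamatergic projection neurons, which express Slc17a7 and, in part, Rspo2, and it lies beside the striatum, whose projection neurons express Ppp1r1b and dopamine and adenosine receptors.

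Gfap stood at 1900.1 CPM (its count scaled by the library total) in trained 1, 1158 in trained 3, 689 in naive 5 and 295.6 in naive 2, which form the high group. The middle library, trained 4, had 131.6 CPM. The low group held naive 1 at 110.0 CPM, naive 4 at 97.1, trained 2 at 87.4 and naive 3 at 50.6. The last library inside the high group and the middle one thus differed more than the middle one and the first of the low group. The 10 controls ran from 28.0 to 81.5 CPM with a median of 41.1, so that naive 3 lay within the control range and the 8 other APP/Tau libraries above it. All other levels are CPM with TMM scaling factors, means ± SD over n = 4 libraries, and differences are high minus low in mean log2 CPM ± standard error.

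Total counts were 50.3 to 62.0 M in the APP/Tau libraries and 54.4 to 74.3 M in the controls. Mitochondrially encoded genes held 2.53 to 3.68% of counts in the high and 2.02 to 3.42% in the low libraries. Prnp, whose promoter drives the tau transgene of the PS19 line, stood at 1069.8 to 1682 CPM in the 9 APP/Tau libraries and at 743 to 1054 CPM in the controls, so the genotype labels were not contradicted. Its level did not separate the high group (1381 ± 225 CPM) from the low group (1495 ± 141 CPM). The library that stands apart is naive 2, the fourth of the high group. It had the most RNA of striatal projection neurons of all 19 BLA libraries, with a summed level of 7051 CPM over the 18 striatal genes against 1360 to 4862 in the 8 other APP/Tau libraries, and medians of gene lists and differences of genes are also given without it where this moved them by more than 1.5 times. In bulk tissue, fewer cells of a type and less RNA per cell cannot be told apart.

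Over 23167 genes other than Gfap that passed the filter on low counts, the median difference was 0.004, with quartiles at -0.15 and 0.19. In 1114 genes (4.81%) all 4 high libraries lay above all 4 low ones, and in 986 (4.26%) all lay below. Without naive 2 these counts were 1782 (7.69%) and 1505 (6.5%), where leaving out a library can only add separated genes. A gene is called separated below when the 2 groups do not overlap in this way. The genes higher in the high group made up 53.0% of the separated genes with TMM factors and 69.5% with plain library totals.

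The 10 largest positive differences were taken among separated genes averaging 1 CPM or more, unnamed predicted genes excepted. Of these 10 genes, 4 were on the plaque-associated microglial list and 3 on the complement and antigen presentation list. The microglial pattern receptor Clec7a stood at 17.6, 9.55, 4.65 and 3.24 CPM in trained 1, trained 3, naive 5 and naive 2. Its low libraries held 0.38, 0.08, 0.07 and 0.10 CPM in naive 1, naive 4, trained 2 and naive 3, which rest on 4 to 22 counts. The difference was 5.49 ± 0.71, and the middle library lay between the groups at 0.78 CPM. The integrin Itgax had 27.5, 13.4, 5.15 and 3.28 CPM in the high libraries and 0.24 to 0.94 CPM in the low ones (difference 4.29 ± 0.81). Cst7, an inhibitor of cathepsins, had 7.73, 4.46, 4.89 and 0.85 CPM in the high libraries against 0.19 to 0.76 CPM, so that naive 2 lay just above naive 1 (difference 3.48 ± 0.82). The lectin Lgals3 was at 2.05 ± 1.52 CPM in the high and 0.16 ± 0.08 CPM in the low group (difference 3.17 ± 0.65). The sialic acid receptor Cd22 (difference 4.33 ± 0.94), the leukocyte surface receptor Ly9 (3.12 ± 0.71) and the secreted matrix protein gene Thbs4 (3.10 ± 0.77) were on neither list. Cd22 had 0 to 22 counts in the low libraries, so its difference depends on the prior count of 2.

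**Figure D1:**
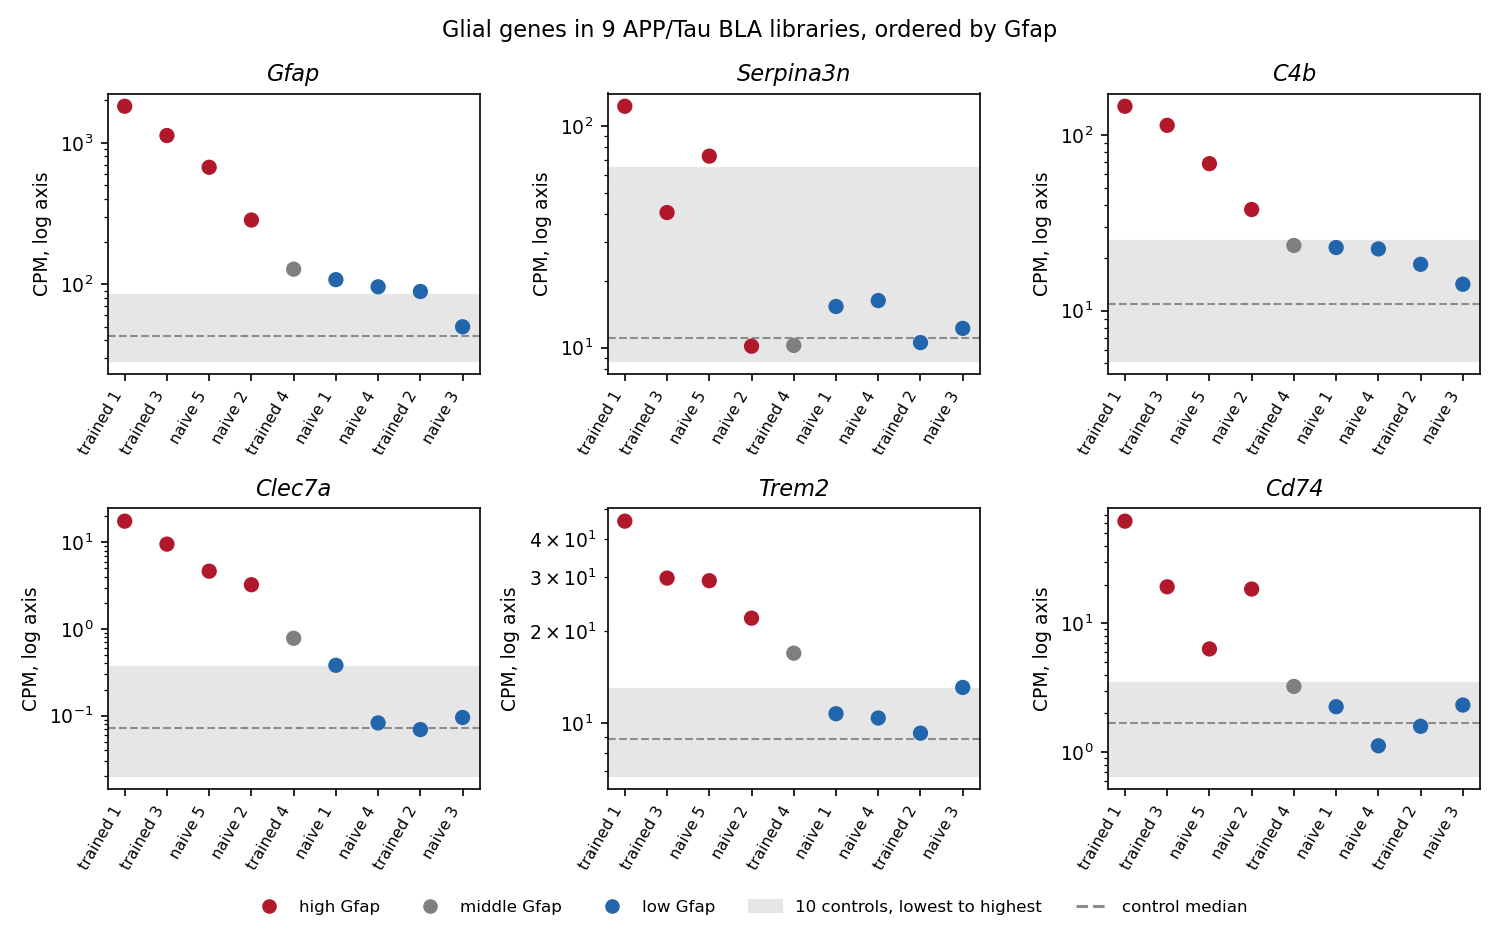
Levels of 6 glial genes (CPM, log axis) in the 9 APP/Tau BLA libraries, ordered by Gfap from left to right, with red for the 4 high, grey for the middle and blue for the 4 low libraries. The grey band spans the 10 controls and the dashed line is their median. C4b, Clec7a, Trem2 and Cd74 separate the groups, whereas Serpina3n in naive 2 (10.1 CPM) lies at the level of the low libraries.

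Of 30 genes of the plaque-associated microglial programme, 23 were separated and higher in the high group and 0 lower, with a median difference of 1.21. All 30 passed the filter, some of them helped by their level in the high libraries, and 25 passed in the controls alone. With no filter beyond 1 count the list held the same 30 genes, so its median there (1.22) does not bear on this. The values were not computed for those 25 genes alone. Trem2, the lipid receptor, was at 45.8, 29.8, 29.2 and 22.1 CPM in the high libraries and at 10.7, 10.4, 9.28 and 13.1 CPM in the low ones. No high library overlapped a low one, and the difference was 1.50 ± 0.24. Its signalling adaptor Tyrobp went from 9.39 ± 1.81 CPM in the low to 27.7 ± 10.0 CPM in the high group (1.51 ± 0.28). Apoe, the lipid carrier made by astrocytes and microglia, stood at 4166, 2697, 2190.5 and 2101 CPM in the high libraries and at 1520.3 to 1799 CPM in the low ones (0.68 ± 0.23). The secreted phosphoprotein gene Spp1, the chemokine gene Ccl4 and the lysozyme gene Lyz2 were separated as well, with differences of 2.37, 3.09 and 2.52. The only member with a negative difference was Timp2, a metalloproteinase inhibitor, at -0.15 (-0.03 without naive 2), and its groups overlapped. Without naive 2, 26 of 30 members were separated and the median was 1.28. In naive 2 alone the median of the members lay 0.88 above the mean of the low group.

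Counts against the controls were larger in every high library than in every low one, but did not follow the Gfap order within the groups. In trained 1, 26 of the 30 genes lay above all 10 controls, in trained 3 27, in naive 5 24 and in naive 2 21. The middle library had 17. In the low group the number was 10 in naive 1, 9 in naive 3, 3 in naive 4 and 0 in trained 2. Over all genes tested, the share above every control was 11.5 to 16.6% in the high libraries, 13.8% in the middle one and 6.56 to 9.62% in the low ones. For 19 of the 30 genes all 4 high libraries lay above all 10 controls, where 2.82% of all genes did so. Without naive 2 this held for 23 genes, against 4.37% of all genes. For 0 of 30 genes did all 4 low libraries lie above all controls, where 0.19% of all genes did. The low group was thus not uniform: naive 1 and naive 3 had some of these genes above the control range.

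Genes of resting microglia were higher in part, and P2ry12, the purinergic receptor that marks resting microglia, was not. It stood at 30.4, 31.9, 33.9 and 33.8 CPM in the high libraries and at 30.6, 33.6, 26.7 and 33.4 CPM in the low ones, a difference of 0.07 ± 0.09 with overlapping groups. Of the 18 genes of this list 11 were separated, all higher, and the median difference was 0.54. Fcrls, an Fc receptor-like gene of microglia, was at 42.7 ± 5.02 CPM against 16.7 ± 1.46 CPM (1.35 ± 0.10). Ctss, a lysosomal cysteine protease, was at 146.0 ± 48.7 against 58.9 ± 5.83 CPM (1.26 ± 0.24). Tmem119, another resting marker, differed by 0.28 with overlapping groups. Without naive 2, 13 of 18 members were separated and the median was 0.51.

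Complement and antigen presentation genes separated in 12 of 21 cases, all higher, with a median of 1.13. C1qa, a chain of the complement initiator C1q, stood at 160, 115, 93.8 and 63.2 CPM in the high libraries and at 31.0 to 41.99 CPM in the low ones (1.53 ± 0.29). The controls reached 36.6 CPM, so the low libraries lay at or near the control range. C4b, the complement C4 gene that reactive astrocytes express, was at 146, 114, 68.7 and 37.6 CPM against 22.9, 22.5, 18.3 and 14.1 CPM (2.08 ± 0.46). The class II genes, which present peptides to helper T cells, differed by more but followed another order of libraries. Cd74, the invariant chain, had 62.2 CPM in trained 1, 19.2 in trained 3, 6.33 in naive 5 and 18.5 in naive 2, against 1.12 to 2.32 CPM in the low group (3.44 ± 0.71). H2-Aa, the class II alpha chain, had 14.9, 4.13, 1.12 and 5.14 CPM against 0.23 to 0.66 CPM (3.39 ± 0.84). H2-Eb1, a class II beta chain, had 10.6, 3.15, 1.46 and 3.38 CPM against 0.33 to 1.36 CPM (2.57 ± 0.72). For all 3 genes naive 5 was the lowest and trained 1 the highest of the high group. H2-Ab1, the partner of H2-Aa, did not separate because naive 5 (0.86 CPM) lay below trained 2 (0.88 CPM). Without naive 2, 17 of the 21 members were separated and the median was 1.27.

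Start sites of these class II genes and of Gfap are shown because they belong to genes that differed together and to the gene that ranked the libraries. Of 25 named genes looked up, 18 have a promoter in the RefSeq table of build GRCm38.p6, matched by symbol; the count files use mm39, so the coordinates belong to the table only. Each sequence runs 5′ to 3′ on the gene's strand from 150 bases before to 20 bases after the start. Gfap lies at chr11:102897181-102897350 (minus strand), H2-Aa at chr17:34287804-34287973 (minus strand) and H2-Eb1 at chr17:34305717-34305886 (plus strand). Capitals mark the STAT motif TTCNNNGAA in Gfap and the Y box CTGATTGG of class II promoters in the other two.
Gfap: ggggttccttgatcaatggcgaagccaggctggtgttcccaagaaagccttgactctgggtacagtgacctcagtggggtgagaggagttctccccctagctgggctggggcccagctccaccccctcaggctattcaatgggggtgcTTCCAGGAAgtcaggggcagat
H2-Aa: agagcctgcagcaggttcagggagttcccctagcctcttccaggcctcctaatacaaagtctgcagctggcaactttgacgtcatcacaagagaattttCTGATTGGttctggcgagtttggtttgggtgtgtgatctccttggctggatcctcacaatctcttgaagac
H2-Eb1: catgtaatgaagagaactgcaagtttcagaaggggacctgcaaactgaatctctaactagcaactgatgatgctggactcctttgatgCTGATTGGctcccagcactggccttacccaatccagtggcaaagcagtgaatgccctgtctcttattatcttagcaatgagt
The STAT motif, searched on both strands, was present in Gfap, in 0 of the 17 other genes with a promoter in the table, some with more than 1 start, and in 4.67% of all 32851 promoters of this length. The Y box, searched on both strands, was present in H2-Aa and H2-Eb1, 2 of the 17 genes, and in 3.321% of all. A match describes the letters only.

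Reactive astrocyte genes other than Gfap differed less uniformly. Of 26 genes, 23 passed the filter. Lcn2, Steap4 and Slc10a6 did not, with at most 16 counts in any library of the comparison. Of the 23, 6 were separated and higher, and 0 were lower. The median difference was 0.65. Of the 6, C4b and H2-D1 are also on the complement and antigen presentation list. Gbp2 is also on the interferon list, and these genes are counted there too. Serpina3n stood at 123, 40.7, 73.1 and 10.1 CPM in trained 1, trained 3, naive 5 and naive 2, and at 15.3, 16.3, 10.5 and 12.2 CPM in the low libraries. Naive 2 lay below every low library, so the gene was not separated over 4 libraries (1.71 ± 0.79) and was separated without naive 2 (2.41 ± 0.48). The controls had 8.67 to 64.8 CPM of Serpina3n, so trained 3 and naive 2 lay within their range. Vim, the vimentin gene, had 37.4, 30.9, 17.9 and 17.2 CPM against 10.7 to 14.3 CPM (0.97 ± 0.29). The cytokine receptor gene Osmr had 10.4, 9.33 and 6.08 CPM in the first 3 libraries and 2.95 CPM in naive 2, against 2.27 to 2.67 CPM (1.39 ± 0.41). The guanylate-binding protein gene Gbp2 was at 2.78 ± 1.44 against 0.97 ± 0.12 CPM (1.38 ± 0.34). Without naive 2, 11 of the 23 were separated and the median was 0.80, while naive 2 itself lay at a median of 0.04 above the low mean. Over naive mice alone, 2 high against 3 low with naive 2 among the 2, the median was 0.19, with Vim at 0.42. Of the 23 genes, 16 lay above all 10 controls in trained 1, 15 in trained 3, 10 in naive 5 and 5 in naive 2, and 9 did so in all of the first 3 libraries.

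General astrocyte genes showed small differences in a single direction. All 15 passed the filter, 9 were separated and higher, and the median difference was 0.33. Aqp4, the water channel of astrocyte end-feet, was at 140, 128, 109 and 97.7 CPM against 68.2, 68.5, 77.3 and 72.4 CPM (0.72 ± 0.12). Mlc1, a membrane protein of the same end-feet, was at 239 ± 33.6 against 160 ± 14.2 CPM (0.58 ± 0.12), and the connexin gene Gja1 at 198 ± 34.6 against 147 ± 19.03 CPM (0.43 ± 0.16). For 8 of the 15 genes all 4 high libraries lay above all 10 controls, where 2.82% of all genes did so. Without naive 2, 9 were separated and the median was 0.36.

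**Figure D2:**
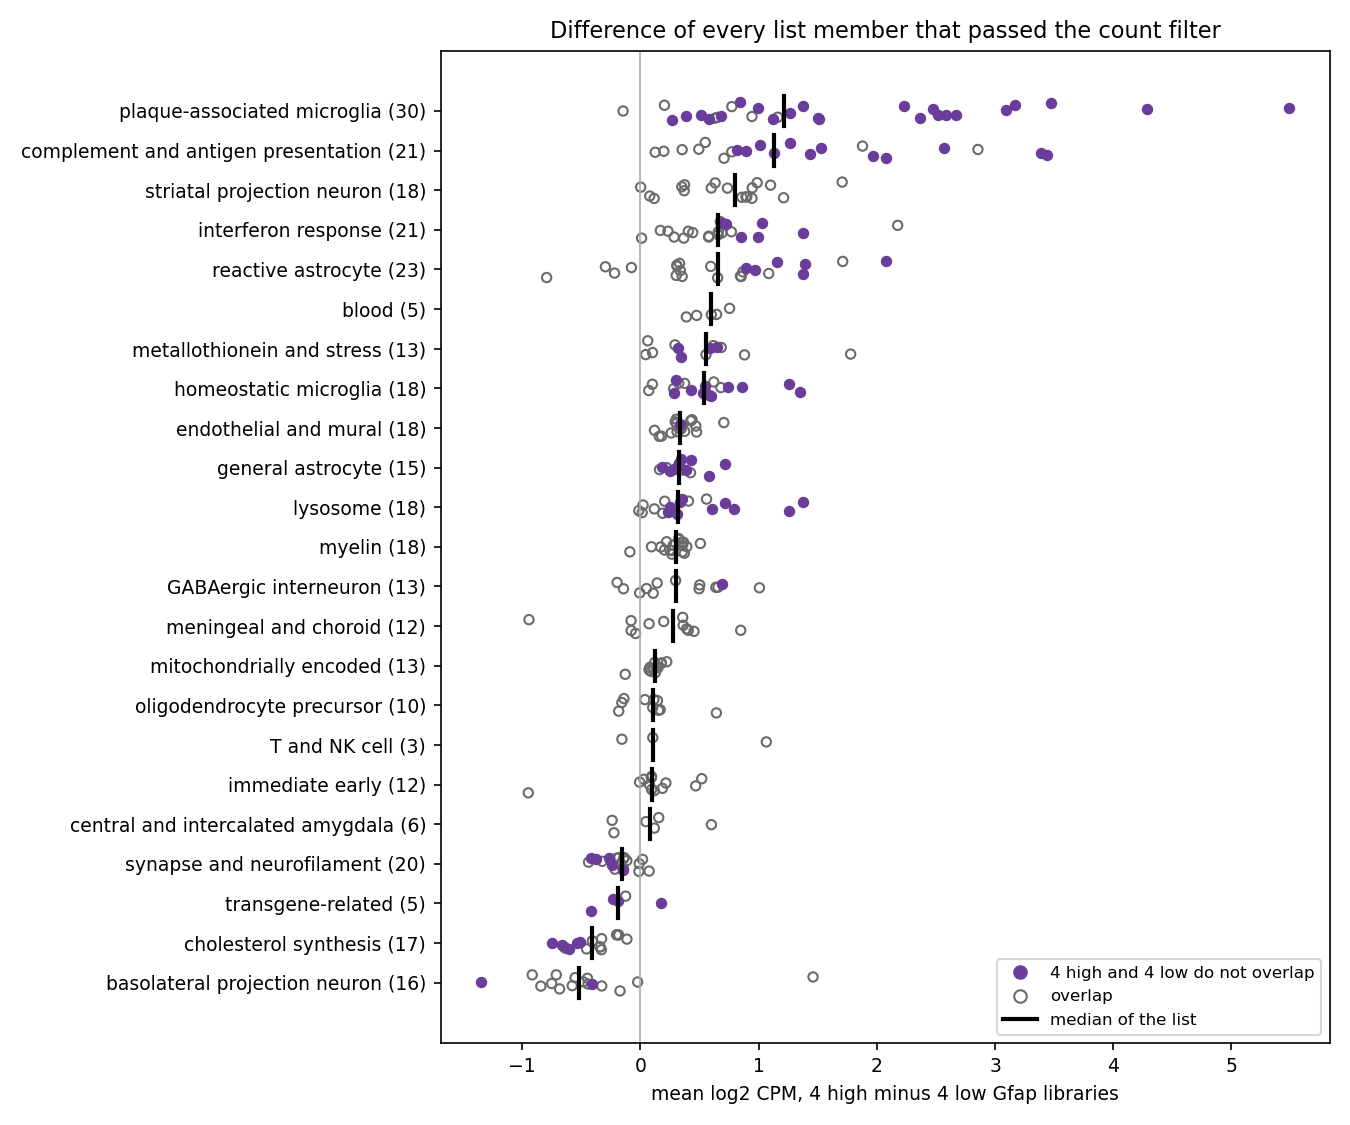
Difference in mean log2 CPM (high minus low group) of each member that passed the filter, for the 23 gene lists, with the number of members in brackets. Filled points are genes whose groups do not overlap, open points overlap, and the black bar is the list median, from 1.21 for plaque-associated microglia to -0.52 for basolateral projection neurons.

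Interferon response genes, lysosomal genes and metallothioneins were higher in part. Of 21 interferon genes 6 were separated, all higher, with a median of 0.66, among them the antiviral Rsad2 at 1.71 ± 0.42 against 0.84 ± 0.20 CPM (1.00 ± 0.23) and Trim30a at 2.58 ± 0.55 against 1.24 ± 0.23 CPM (1.03 ± 0.21). Of 18 lysosomal genes 10 were separated, all higher, with a median of 0.32. The cathepsin genes Ctsc (1.38 ± 0.24) and Ctsh (1.25 ± 0.30) and the lysosomal membrane gene Laptm5 (0.80 ± 0.17) had the largest differences there. Of 13 metallothionein and stress genes 4 were separated and higher, with a median of 0.55. Mt1, Mt2 and Mt3 encode metal-binding proteins, and they differed by 0.59 ± 0.14, 0.65 ± 0.20 and 0.35 ± 0.11. The fourth was Ddit3, a transcription factor of the unfolded protein response, at 0.32. Without naive 2 the separated counts were 8, 13 and 6. Markers of T and NK cells were scarce: 3 of 16 passed the filter, 0 were separated (median 0.10, and 0.04 without naive 2), and Trbc1 and Gzma had 0 counts in every BLA library of the comparison.

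Cholesterol synthesis genes had negative differences in 17 of 17 cases, with a median of -0.41. The 5 separated genes were lower in the high group. Stard4, a sterol carrier, stood at 16.97, 26.2, 20.8 and 24.97 CPM in the high libraries and at 33.1, 37.4, 39.2 and 38.4 CPM in the low ones (-0.75 ± 0.15). The control range was 34.9 to 56.3 CPM, and all 4 high libraries lay below it, as did naive 1 of the low group and the middle library at 30.9 CPM. This did not hold for the list as a whole in trained 3. Below every control lay 17 of the 17 genes in trained 1, 16 in naive 5 and 14 in naive 2, but 1 in trained 3. The middle library had 3 and the low libraries 0 to 4. Over all genes the share below every control was 8.64 to 15.6% in the high libraries. Hmgcs1, which makes the precursor of mevalonate, had 128, 205, 134 and 162 CPM against 216 to 312 CPM (-0.66 ± 0.20). Its control range was 185 to 358 CPM, so trained 3 lay within it. Fdps, a prenyl diphosphate synthase further along the pathway, was also among them (-0.54). Without naive 2, 5 genes were separated and the median was -0.46.

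Synapse and neurofilament genes were slightly lower. Of 20 genes, 5 were separated and lower, 0 were higher, and the median was -0.16, as it was without naive 2, where 6 were separated. Camk2a, a kinase of excitatory synapses, had 1455, 1938, 1861 and 1853 CPM in the high libraries and 2046 to 2723 CPM in the low ones (-0.42 ± 0.13). The middle library, at 1384 CPM, lay below all of them. Nefl, the light neurofilament chain, was at 344 ± 18.1 against 450.4 ± 71.7 CPM (-0.38 ± 0.12) and the tubulin gene Tubb3 at 236 ± 15.04 against 285 ± 20.5 CPM (-0.27 ± 0.07). Snap25, of the vesicle fusion complex, and Grin1, an NMDA receptor subunit, were separated at -0.24 and -0.15. Among genes tied to the transgenes, App differed by -0.23 ± 0.06 and Mapt by -0.19 ± 0.07, both lower, and Rpl22, the gene that RiboTag tags, by 0.18, higher. Reads of mouse and human App and Mapt are not told apart in these counts. Lmo3 and Mapt were no longer separated when plain library totals replaced TMM factors.

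**Figure D3:**
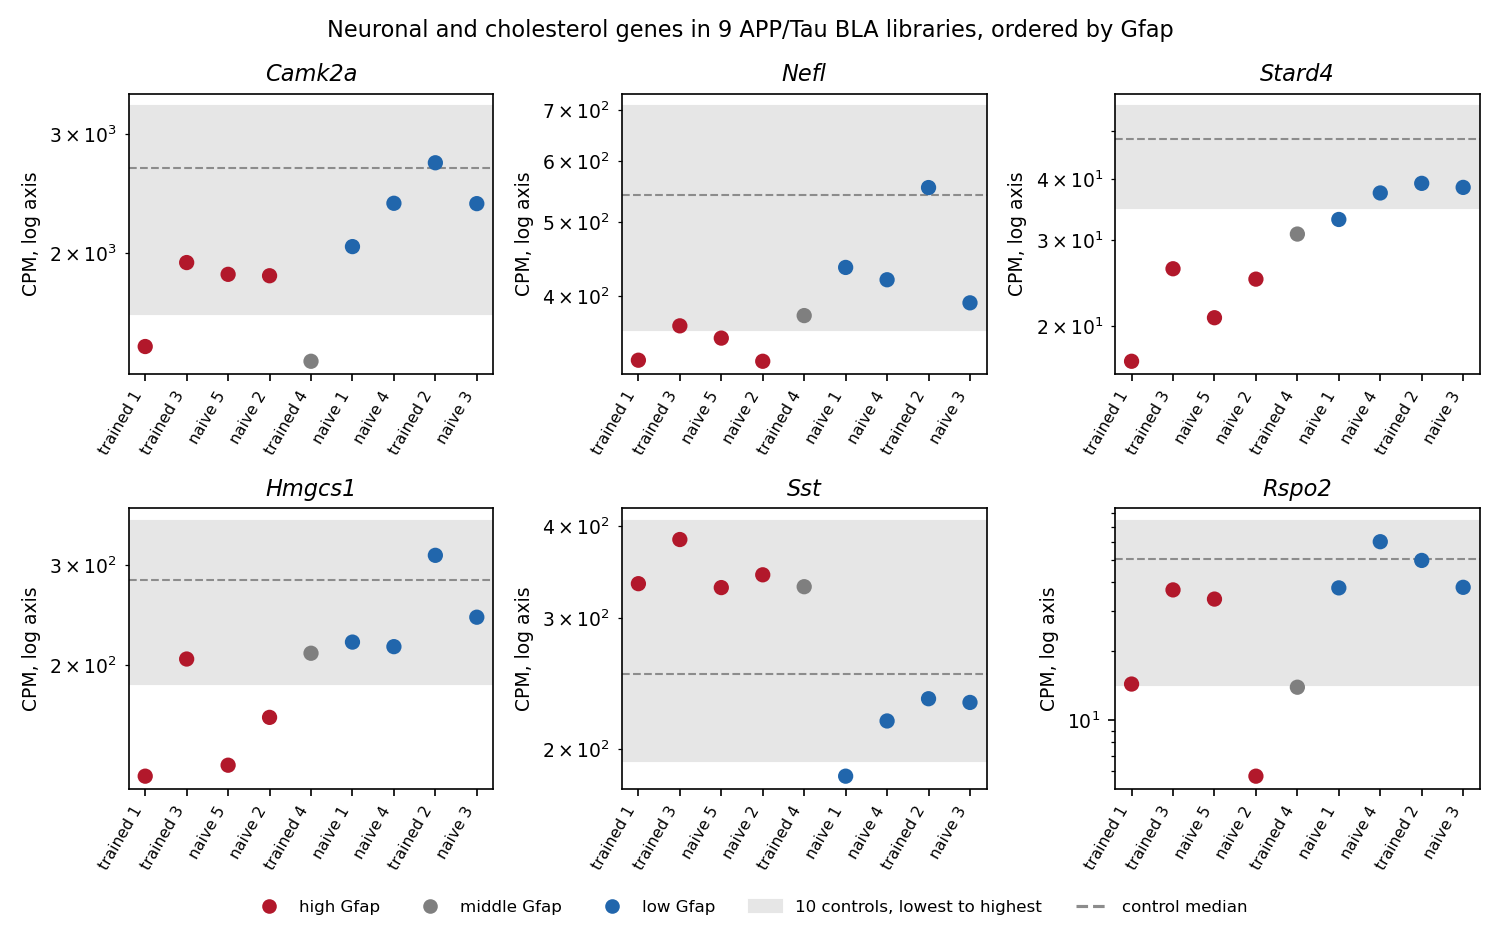
Levels of 6 neuronal and cholesterol genes (CPM, log axis) in the 9 APP/Tau BLA libraries ordered by Gfap, with the control range as a band and its median as a dashed line. Camk2a, Nefl, Stard4, Hmgcs1 and Rspo2 are lower and Sst is higher in all 4 high libraries than in all 4 low ones.

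Striatal markers did not separate the groups. Of 18 genes 0 were separated, although all 18 differences were positive, down to 0.00 for Isl1 (-0.24 without naive 2), and the median was 0.80. The summed level was 3415 CPM in trained 1, 1679 in trained 3, 2469 in naive 5 and 7051 in naive 2, against 2508, 1723, 1360 and 3333 in naive 1, naive 4, trained 2 and naive 3. Apart from naive 2, the high libraries lay within or just above the range of the low ones. Ppp1r1b, the dopamine-regulated phosphatase inhibitor DARPP-32, was at 489, 240, 339 and 1162 CPM in the high and at 285, 168, 155 and 402 CPM in the low libraries (0.99 ± 0.59). Drd1 and Drd2, the dopamine receptors, differed by 0.60 ± 0.50 and 0.90 ± 0.73, the adenosine receptor Adora2a by 0.89 ± 0.65 and the enkephalin precursor Penk by 0.37 ± 0.55. Without naive 2 these 5 differences were between 0.06 and 0.55 and the list median was 0.34. In naive 2, 15 of 18 genes lay above all 10 controls, beside 16.6% of all genes there. In the middle library and in naive 1 this was so for 1 gene each, and in the 6 others for 0.

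**Figure D4:**
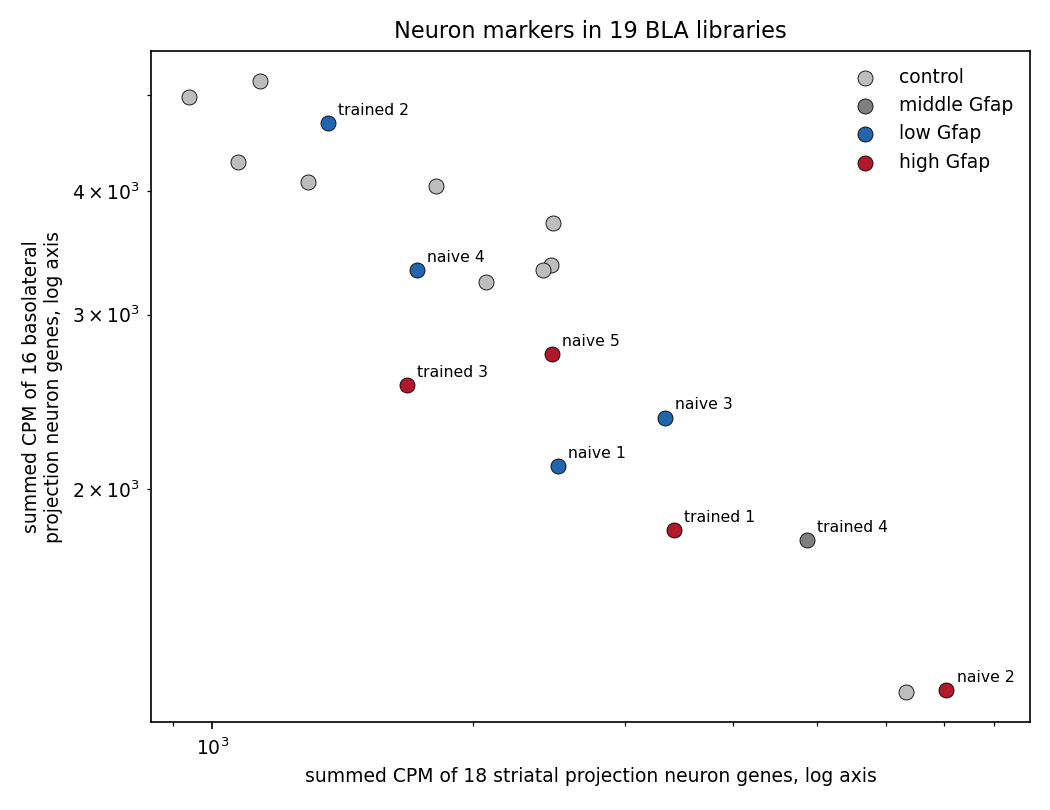
Summed level of 18 striatal (x axis) against 16 basolateral (y axis) projection neuron genes in CPM, both on log axes, in 19 BLA libraries. High (red) and low (blue) libraries are interspersed, with naive 2 at 7051 striatal and 1253 basolateral CPM, beside a control at 6325 and 1248.

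Basolateral projection neuron markers were lower in 2 of 16 genes by separation, Rspo2 and Lmo3, and higher in 0. Over all genes 4.26% were lower by separation. The median was -0.52, and -0.31 without naive 2, where 2 genes were separated, beside 6.5% of all genes lower. Rspo2, a secreted activator of Wnt signalling, stood at 14.4, 37.1, 33.8 and 5.69 CPM in the high libraries and at 37.8, 60.2, 49.9 and 38.04 CPM in the low ones (-1.35 ± 0.65). Trained 3 and naive 1 differed by less than 1 CPM, so the separation is narrow. The transcriptional regulator Lmo3 had 227, 163, 229 and 262 CPM against 265 to 316 CPM (-0.41 ± 0.16). Its separation is narrow as well, at 262 against 265 CPM, and was lost with plain library totals. Slc17a7, the vesicular glutamate transporter, had 603, 1119, 1125 and 392 CPM against 796, 1452, 1881 and 911 CPM, a difference of -0.68 ± 0.47 with overlapping groups. Neurod6 (-0.92 ± 0.71) and Etv1 (-0.71 ± 0.34), both transcription factors, also overlapped. Without naive 2 the differences were smaller, at -0.80 ± 0.46 for Rspo2, -0.38 ± 0.42 for Slc17a7, -0.29 ± 0.41 for Neurod6 and -0.51 ± 0.34 for Etv1, and that of Lmo3 was -0.50 ± 0.17. The summed level was 1816, 2545, 2735 and 1253 CPM in the high and 2107, 3327, 4681 and 2361 CPM in the low libraries, against a control median of 3876.

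The central amygdala marker Prkcd, a protein kinase C, had 85.1, 33.0, 113 and 13.4 CPM in the high libraries and 33.9 to 51.4 CPM in the low ones (0.15 ± 0.71), and 0 of 6 genes of the central and intercalated nuclei were separated (median 0.08, and 0.06 without naive 2). Without naive 2 the Prkcd difference was 0.74 ± 0.55. Trained 1 and naive 5 lay above the control maximum of 55.5 CPM and naive 2 below the control minimum of 15.7. Among 13 interneuron genes 1 was separated and higher, beside 4.81% of all genes. This was Sst, the somatostatin precursor, with 334, 383, 330.1 and 343 CPM in the high and 184, 218, 234 and 231 CPM in the low libraries. Its difference was 0.69 ± 0.09, and 0.69 ± 0.11 without naive 2. The interneuron median was 0.30, and 0.33 without naive 2. The controls, at 192 to 406 CPM of Sst, covered all of these Sst values except that of naive 1. Of 12 immediate early genes, which neural activity induces, 0 were separated (median 0.09, and 0.25 without naive 2). Fos was at 15.8, 29.0, 18.3 and 7.78 CPM against 9.05, 6.45, 32.3 and 8.19 CPM, where the trained mice of either group held 15.8 to 32.3 CPM and the naive mice 6.45 to 18.3 CPM.

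Markers of other cells were as follows. Of 18 myelin genes 0 were separated, with a median of 0.30, and 0.13 without naive 2. Mbp, the myelin basic protein gene, had 1643, 1153, 1391 and 2207 CPM in the high and 995 to 1415 CPM in the low libraries, and the middle library had 2253. All 18 myelin genes lay above every control in naive 2, 17 in the middle library and 11 in trained 1. Over all genes the shares above every control were 16.6, 13.8 and 15.7% there. Of 5 blood genes 0 were separated (median 0.60, and 0.15 without naive 2), and all 5 lay above every control in naive 2, where their median was 1.90 above the low mean. Of 18 endothelial and mural genes 1 was separated and higher, which is near the share of all genes (4.81%). This was the vascular growth factor receptor Flt1, at 49.9 ± 6.41 against 39.4 ± 2.80 CPM (0.33 ± 0.10). Without naive 2, 6 were separated and higher, beside 7.69% of all genes. Oligodendrocyte precursor genes (10, median 0.11), meningeal and choroid genes (12, median 0.28) and mitochondrially encoded genes (13, median 0.13) had 0 separated members. Without naive 2 these medians were 0.04, 0.26 and 0.24, and 1 meningeal and choroid gene was separated. The summed ranges were 3426 to 6756 CPM in the high and 3137 to 4319 CPM in the low libraries for myelin, and 31.0 to 130.1 against 20.1 to 61.0 CPM for blood. The part of these cells and of the punch position in the glial differences was not tested. Naive 2 had the highest summed striatal, myelin and blood levels of the 9 libraries and the least Gfap of the high group. Leaving it out changes both at once, and their parts cannot be told apart. Without it, the median was larger for the plaque-associated microglial, complement, interferon and both astrocyte lists. For resting microglia it was 0.51 against 0.54.

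The 10 largest negative differences were taken among separated genes with the same minimum of 1 CPM, unnamed predicted genes excepted. In 7 of these 10 genes naive 2 had the lowest level of the 8 libraries. Ccdc3, a secreted protein gene, had 13.4, 10.5, 21.8 and 5.85 CPM against 24.8, 42.8, 41.9 and 29.8 CPM (-1.55 ± 0.44). Npsr1, the neuropeptide S receptor, had 14.03, 11.9, 24.6 and 7.65 CPM against 30.0, 41.8, 41.1 and 33.1 CPM (-1.44 ± 0.37). The controls had 9.84 to 42.8 CPM of Npsr1, so only naive 2 lay outside their range. The calcium-sensing receptor Casr (-1.47 ± 0.58), Ucma (-1.42 ± 0.74), the growth factor Bmp3 (-1.33 ± 0.51), the aldehyde dehydrogenase Aldh1a7 (-1.31 ± 0.39), the phosphatase Acp7 (-1.28 ± 0.37), the protease Prss23 (-1.25 ± 0.47) and the adrenergic receptor Adrb3 (-1.24 ± 0.23) follow, beside Rspo2. Without naive 2 the differences were smaller in those 7 genes, and that of Ucma was -0.72. Casr, Aldh1a7 and Adrb3 differed by more without it, at -1.75, -1.49 and -1.44.

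Hippocampal libraries gave measurements that the ranking did not use. Each of the 19 BLA libraries has a hippocampal library with the same number, group and replicate in the labels, and the numbers were taken as mouse numbers, which the labels do not state outright. Hippocampal Gfap was 4520 CPM for the mouse of trained 1, 3722 for trained 3, 4881 for naive 5 and 1308 for naive 2. The mice of the low group had 1594, 994, 672 and 901 CPM in naive 1, naive 4, trained 2 and naive 3. The 11 hippocampal controls had 315 to 497 CPM, below all 9 APP/Tau mice. In 3 of 4 mice with high BLA Gfap the hippocampal level lay above all 4 mice with low BLA Gfap, and naive 2 lay below naive 1. The difference in mean log2 CPM was 1.70 with p = 0.0571 in an exact 2-sided permutation test over 70 splits, whose smallest possible p is 0.0286. Without the mouse of naive 2 the difference was 2.13 and the exact permutation p 0.0286, the smallest this design allows. With any other mouse left out the exact permutation p was 0.0571 or 0.0857.

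**Figure D5:**
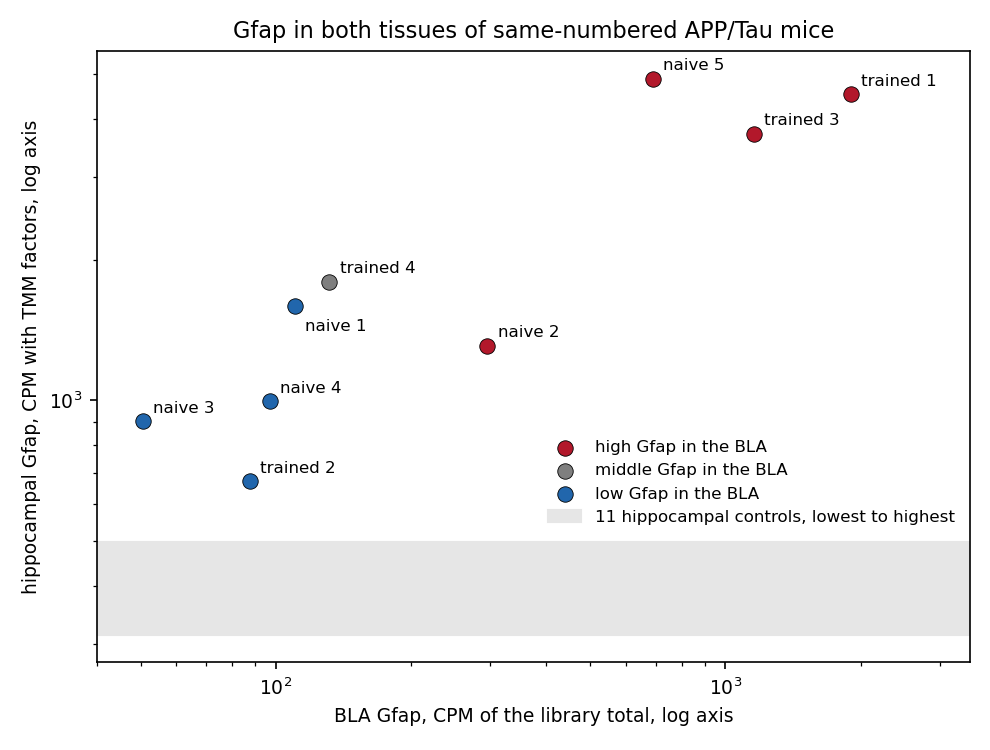
Gfap in the BLA (x axis, CPM of the library total) and in the hippocampus (y axis, CPM with TMM factors) of the 9 same-numbered APP/Tau mice, both on log axes, with the 11 hippocampal controls as a band from 315 to 497 CPM. Trained 1, trained 3 and naive 5 lie together at the upper right, and naive 2 lies at 1308 CPM in the hippocampus, among the low mice.

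Across all hippocampal genes, edgeR's quasi-likelihood test called 0 of 23954 higher (0%) and 0 lower (0%) at an adjusted p of 0.05, while 4062 (17%) had an unadjusted p under 0.05. DESeq2 called 903 higher (3.77%) and 206 lower (0.86%). Without the mouse of naive 2, edgeR called 2273 of 24408 higher (9.31%) and 1854 lower (7.6%). Leaving out any other mouse gave 0 to 2 genes higher and 0 to 1 lower, and training as a covariate gave 0 and 0. Naive 2 was set apart above for the striatal RNA in its BLA library. It is also the high mouse with the least hippocampal Gfap, so leaving it out removes the high mouse nearest to the low ones in that gene. The 5 genes with the smallest p over all 8 mice were H2-Eb1 (2.44 ± 0.35), H2-Aa (3.24 ± 0.48), Ccn3 (-0.66 ± 0.10), Fcrls (1.79 ± 0.28) and Plscr2 (1.88 ± 0.30), each with an edgeR adjusted p of 0.148. H2-Aa stood at 17.9, 18.3, 5.52 and 7.50 CPM in the high mice and at 1.82, 0.56, 1.14 and 1.70 CPM in the low ones. As in the BLA, the lowest of the high mice in both class II genes was naive 5. Ccn3, a secreted matrix protein gene, was at 79.5, 69.6, 84.7 and 95.6 CPM against 132.9, 144.0, 131.2 and 115.8 CPM, and Plscr2 encodes a phospholipid scramblase.

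Astrocyte and microglial genes in the hippocampus had positive differences that edgeR did not call over 8 mice. Serpina3n gave 1.97 ± 0.43, Vim 2.32 ± 0.48, Trem2 1.53 ± 0.32, Tyrobp 1.56 ± 0.33, Aqp4 1.06 ± 0.24, C1qa 1.93 ± 0.39, Cd74 2.98 ± 0.51 and Gfap 1.80 ± 0.39 (edgeR adjusted p = 0.148 each). C4b (1.91 ± 0.45), Clec7a (3.11 ± 0.74), Osmr (1.77 ± 0.42) and Apoe (1.10 ± 0.26) had an edgeR adjusted p of 0.151 and Cst7 (2.72 ± 0.79) of 0.180. Clec7a stood at 42.1, 34.0, 31.2 and 8.37 CPM in the high and 7.93, 0.60, 1.21 and 3.63 CPM in the low mice, so the groups did not overlap, with naive 2 close to naive 1. Serpina3n in the mouse of naive 2 (72.7 CPM) lay within the low range of 39.2 to 90.4 CPM, as it lay at the low level in the BLA. P2ry12 differed by 0.06 ± 0.15 (edgeR adjusted p = 0.864). The median over the 30 plaque-associated microglial genes was 1.48 with 30 positive, over 26 reactive astrocyte genes 1.33, over 15 general astrocyte genes 0.44, over 21 complement and antigen presentation genes 1.49 and over 18 lysosomal genes 0.56, beside 0.001 over all genes.

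Without the mouse of naive 2, edgeR called 29 of 30 plaque-associated microglial genes, 19 of 21 complement and antigen presentation genes, 21 of 26 reactive astrocyte genes, 15 of 18 lysosomal genes, 10 of 15 general astrocyte genes and 18 of 18 myelin genes higher. It called 1 reactive astrocyte gene lower, the adhesion gene Amigo2 (-0.40 ± 0.09, edgeR adjusted p = 0.0150). Gfap rose by 2.08 ± 0.24 (edgeR adjusted p = 0.000901), Serpina3n by 2.27 ± 0.26 (adjusted p = 0.000892) and Trem2 by 1.78 ± 0.18 (adjusted p = 0.00071) in this fit with edgeR. DESeq2 over all 8 mice called 24 of 30, 17 of 21, 18 of 26, 12 of 18, 8 of 15 and 2 of 18 of the same lists higher. The background shares are those given above for each fit. These edgeR calls depend on leaving out the mouse of naive 2, since over all 8 mice edgeR called 0 genes.

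When the BLA Gfap level of each mouse replaced the split into groups, so that all 9 mice entered with the middle one, edgeR called 1689 of 24992 hippocampal genes with a positive slope (6.76%) and 994 with a negative one (3.98%). Slopes are the log2 change in the hippocampus per doubling of Gfap in the BLA. This fit had no training term, although the 2 mice with most BLA Gfap were trained. Gfap itself rose by 0.51 ± 0.07 per doubling (edgeR adjusted p = 0.00432), Serpina3n by 0.57 ± 0.07 (0.00421), Vim by 0.65 ± 0.07 (0.00267) and H2-Aa by 0.84 ± 0.11 (0.00432). Stard4 fell by 0.21 on the log2 scale (± 0.03, edgeR adjusted p = 0.00432) and Slc17a7 by 0.14 (± 0.04, adjusted p = 0.0421). The slope was positive and called for 27 of 30 plaque-associated microglial genes, 23 of 26 reactive astrocyte genes, 18 of 21 complement and antigen presentation genes, 16 of 18 lysosomal genes and 14 of 18 myelin genes. It was negative and called for 13 of 17 cholesterol genes, 6 of 20 synapse and neurofilament genes, 6 of 16 basolateral genes and 2 of 17 striatal genes, Pde10a and the adenylyl cyclase gene Adcy5. P2ry12 (slope 0.02 ± 0.04, edgeR adjusted p = 0.819) and Mapt (0.01 ± 0.02, adjusted p = 0.840) were not called.

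Cholesterol and synapse genes had negative hippocampal differences throughout, with medians of -0.43 over 17 cholesterol genes (0 positive) and -0.20 over 20 synapse and neurofilament genes (0 positive). Without the mouse of naive 2, edgeR called 14 of 17 and 15 of 20 lower, and DESeq2 over 8 mice called 8 and 0. Stard4 stood at 16.4, 15.97, 14.5 and 26.4 CPM in the mice of the high group and at 27.2, 27.9, 29.2 and 32.8 CPM in those of the low group. Hmgcs1 had 148, 157, 134 and 203 CPM against 225, 210.8, 245 and 237 CPM. In both genes naive 2 was the closest to the low mice, and the groups did not overlap. Nefl was at 418.1, 535, 417.7 and 680.1 CPM against 574, 671, 607 and 619 CPM, so that naive 2 held the highest value of the 8 and the groups overlapped. Mapt differed by 0.02 ± 0.07 (edgeR adjusted p = 0.874) and App by -0.16 ± 0.07 (adjusted p = 0.291).

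Neuron markers of the striatum did not follow the ranking in the hippocampus. Their median was -0.07 over 17 genes, 7 of them positive, and edgeR called 0 higher and 1 lower without the mouse of naive 2, the phosphodiesterase gene Pde10a (-0.48 ± 0.07, adjusted p = 0.00173). Ppp1r1b gave 0.20 ± 0.13, Drd1 0.01 ± 0.20, Drd2 -0.09 ± 0.23, Adora2a -0.28 ± 0.52 and Penk -0.38 ± 0.23 (edgeR adjusted p between 0.420 and 0.981 for these 5). Genes of the basolateral list, many of which hippocampal pyramidal cells also express, had a median of -0.23 with 2 of 16 positive. Slc17a7 gave -0.32 ± 0.18 (adjusted p = 0.369), Etv1 -0.35 ± 0.11 (0.204), Neurod6 -0.33 ± 0.20 (0.404) and Rspo2 -0.20 ± 0.11 (0.348), all edgeR adjusted p. Without the mouse of naive 2, edgeR called 9 of 16 lower. Prkcd (0.20 ± 0.28), Mbp (0.49 ± 0.19) and Prnp (-0.08 ± 0.11) had edgeR adjusted p of 0.749, 0.241 and 0.738.

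The BLA controls show how neuron markers vary with Gfap between punches of mice without the transgenes. Over the 10 control libraries, whose Gfap level ran from 28.4 to 83.5 CPM with TMM factors, edgeR called 0 of 22480 genes (0%) with a positive and 0 (0%) with a negative slope on log2 Gfap, and 889 (3.95%) had an unadjusted p under 0.05. DESeq2 called 4 positive and 10 negative. The 5 genes with the smallest p were the meiotic cohesin gene Rec8 (slope -2.23 ± 0.35 per doubling of Gfap, edgeR adjusted p = 0.473), and the lipase gene Lpl (0.71 ± 0.13), Medag (-0.87 ± 0.18), Npsr1 (-1.14 ± 0.24) and the monoamine transporter gene Slc29a4 (0.71 ± 0.15), each with an edgeR adjusted p of 0.998. Npsr1 and Rspo2 (-0.81 ± 0.25, edgeR adjusted p 0.998) are also among the genes with the largest negative differences in APP/Tau mice. Rspo2 stood at 28.5, 14.2 and 36.3 CPM in the 3 controls with most Gfap and at 48.6, 52.9 and 65.9 CPM in the 3 with least. Npsr1 stood at 10.1, 9.84 and 12.1 against 29.8, 35.5 and 42.8 CPM. The controls between them had 39.6 to 74.0 CPM of Rspo2 and 21.4 to 36.2 CPM of Npsr1. The values of 14.2 and 9.84 CPM are of control trained 2, the control with most striatal RNA. Npsr1 was named for its p in these same libraries, and neither slope was called.

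Striatal genes had a median slope of 0.46 in the controls, with 18 of 18 positive, and basolateral genes -0.12, with 5 of 16 positive, beside 0.01 over all genes. Without control trained 2, the control with most striatal RNA, the medians were -0.63 and 0.16, so the sign of both rested on that library. The control with most Gfap, naive 1 at 83.5 CPM, had 116 CPM of Ppp1r1b, among the 3 lowest of the controls, while control trained 2 had 72.8 CPM of Gfap and 919 CPM of Ppp1r1b. Plaque-associated microglial genes had a median slope of 0.12 over 25 genes, reactive astrocyte genes 0.06 over 23, general astrocyte genes 0.03 over 15, cholesterol genes -0.20 over 17 with 0 positive, and myelin genes 0.21 over 18 with 18 positive. C4b, with 0.80 ± 0.24, had the largest slope among the glial genes named here, at an edgeR adjusted p of 0.998.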

How the data were processed

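RNA counts of 39 libraries were used, 19 from the BLA and 20 from the hippocampus. The authors deposited whole-number counts for 50559 genes per library. Trimmomatic 0.39 trimmed the reads and the build was mm39, as the submitters' processing notes say. Which aligner, counter, annotation and strand setting were used is not stated in the material used. Even numbers made up 58.5 to 62.5% of the counts of 1 to 20 in the APP/Tau BLA libraries, so small counts may rest on fewer fragments than their size.

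The ranking used Gfap over the column total. Levels are CPM with TMM factors over the 19 BLA libraries (R 4.3.3, edgeR 4.0.16, filterByExpr with a minimum count of 10 and total of 15), and differences are of mean log2 CPM with a prior count of 2. Tests were edgeR's quasi-likelihood F test, 2-sided, with Benjamini-Hochberg adjustment over all genes of a fit and a threshold of 0.05, DESeq2 1.42.0 as an alternative, and exact permutation for hippocampal Gfap. The control slope had training as a covariate.

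The members, the 23 gene lists and the 27 fixed named genes were chosen with earlier results of these data known. Further genes were named by rule: the 10 highest and 10 lowest separated genes averaging 1 CPM or more, unnamed predicted genes excepted, up to 3 separated members per list, and the 5 genes of smallest p per test. Spp1, Ccl4, Lyz2, Timp2, Tmem119, H2-Ab1, Ddit3, Fdps, Snap25, Grin1, Rpl22, Amigo2, Pde10a, Adcy5, Isl1 and Fos were named after their values were seen. Some genes that these rules name are not reported here. Alternatives were other scaling factors, filters and prior counts, another placing of the middle library, 3 against 3 libraries, naive libraries alone, a replicate block, and leaving out each library.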

Additional observations from a re-analysis of the deposited data

Results flagged for a closer look

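Of 84 groups of library levels examined for a value far from the others, 10 held 1, and chance marks about 1 in 20. In the low group, naive 1 had 0.763 CPM of Cst7 against 0.207 in the next library, and 0.381 CPM of Clec7a against 0.095. Naive 1 was also the low library with most Gfap.

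The other 8 all concern control trained 2, the control with most striatal RNA. It had 919 CPM of Ppp1r1b, 118 of Drd1, 144 of Drd2, 257 of Adora2a and 1417 of Penk, with 338 to 775 CPM as the next value for Ppp1r1b and Penk. Its Mbp was the highest of the controls at 1574 CPM, and its Cst7 at 0.338 CPM. Slc17a7 was the lowest at 377 CPM, where the next control had 1366 CPM. The naive 2 library of the high group resembled it in these neuron genes, with 1162 CPM of Ppp1r1b and 392 CPM of Slc17a7.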

How the results depend on the processing

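The sign of 7 differences turned under at least 1 alternative: those of P2ry12 and Prkcd and the medians of T and NK cell, blood, central and intercalated amygdala, immediate early and mitochondrially encoded genes. The other fixed named genes and lists kept the sign of high minus low in the BLA under every alternative run. In the control slope, the striatal median went from 0.46 to -0.63 and the basolateral one from -0.12 to 0.16 without control trained 2. The counts of separated genes, 1114 higher and 986 lower, moved with the number of libraries: they were 2300 and 2056 with 3 against 3 libraries, 597 and 294 with the middle library added to the low group, 3074 and 3049 in naive libraries alone, and between 1387 and 1782 higher and 1162 and 1626 lower when each library was left out, which follows from fewer or more libraries having to separate. Plain library totals gave 1453 higher and 638 lower genes, and they moved the median difference over all genes from 0.004 to 0.042. The median of reactive astrocyte genes was 0.19 in naive libraries alone and 0.49 to 0.81 with each library left out, that of plaque-associated microglial genes 1.07 to 1.37, of striatal genes 0.34 to 1.03 and of basolateral genes -0.76 to -0.31. Trained libraries alone gave no comparison, since the low group holds 1. Of 814 values of genes and lists under alternatives, 799 moved by less than the spread between libraries and 15 by more, 12 of them in naive libraries alone.

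The hippocampal counts of 0 higher and 0 lower became 1689 and 994 for the slope over 9 mice and 903 and 206 with DESeq2. Without the mouse of naive 2 they were 2273 and 1854. With any other mouse left out they were 0 to 2 and 0 to 1, and with training as a covariate 0 and 0. A replicate block gave 88 and 2, but the title numbers name different mice: deviations of same-numbered hippocampal APP/Tau libraries correlated at -0.03 to 0.19 and those of BLA controls at -0.29 to 0.15, so the numbers do not pair the samples. The block called 0 and 0 genes in the control slope. The hippocampal Gfap difference was 1.53 with the middle mouse added to the high group (exact permutation p = 0.0317) or to the low group (p = 0.0397), and 1.50 to 2.13 with each mouse left out. Of these 8 fits, p was 0.0286 without the mouse of naive 2, 0.0571 in 2 and 0.0857 in 5 (exact permutation). The control slopes gave 4 and 10 calls with DESeq2 and 0 to 0 when each control was left out.

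Limits: 4 against 4 libraries chosen by their own Gfap counts allow no test in the BLA. Several immune genes rest on few counts in the low libraries. Training is unevenly spread over the groups, and the 2 highest libraries were trained mice.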
